A study of Homo sapiens with 9 samples.

Results

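The human ZNF genes, named by the root ZNF and a number, encode zinc finger proteins, and those expressed well in A549 cells were followed through the loss of PRMT5 or of its partner MEP50. A549 is an established line of lung adenocarcinoma. Members were the protein-coding genes whose symbol is ZNF with a number and at most 1 final letter, and they were selected on their measured level, a mean of at least 3 CPM over the GFP control libraries. CPM is the number of reads of a gene scaled to the reads on all genes of its library. The rule kept 306 of the 493 protein-coding ZNF genes in a count table of 51796 genes, and 187 lay under the floor. All 306 had enough reads to be tested, among 14582 genes tested in all.

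The 9 libraries came from A549 cells that stably carried a short hairpin RNA against PRMT5 (3 libraries), against MEP50 (3 libraries) or, as control, against GFP (3 libraries). All 3 lines were grown in the same medium with 10% serum and with 1 µg/ml puromycin. Each target had 1 hairpin as far as the labels tell, so what the hairpin does and what the loss of its target does cannot be told apart. The labels call the 3 libraries of a group biological replicates without saying how the cultures were separated, so the p-values measure the spread between these libraries.

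Most ZNF proteins bind DNA through tandem fingers of the C2H2 type, in which paired cysteines and histidines hold a zinc ion. Many carry a KRAB box, which recruits TRIM28 (KAP1) and through it the methyltransferase SETDB1 and the heterochromatin protein HP1, and these silence the bound site. Others carry a SCAN domain, through which they pair, or no domain of either kind. Most KRAB genes lie in clusters made by repeated duplication, above all on chromosome 19, and their gene bodies can themselves be covered by the silencing mark H3K9me3, in part through ZNF274. PRMT5 methylates arginines symmetrically, in histone tails and in proteins of the splicing machinery among others, and MEP50, encoded by WDR77, is the WD-repeat protein that holds its substrates.

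The promoters of 8 members are shown because the results turn on these genes and because some of them share a pattern of letters. Each is the 250 bases before the annotated start, 5′ to 3′ on the gene's strand, from RefSeq on GRCh38.p14, whereas the reads were counted on hg19. RefSeq promoters were matched by symbol for 265 of the 306 members. The genes and the motifs were chosen after their values were seen, and a match describes letters, not a bound site. ZNF678 (chr1:227563306-227563555, plus strand), ZNF107 (chr7:64665883-64666132, plus strand) and ZNF138 (chr7:64794178-64794427, plus strand) are KRAB genes that were higher with PRMT5 knockdown and lower with MEP50 knockdown. Capitals mark CCAATCA, which holds the CCAAT box bound by NF-Y, and each of the 3 promoters carries 2 copies whose first bases are 29 bases apart.
ZNF678: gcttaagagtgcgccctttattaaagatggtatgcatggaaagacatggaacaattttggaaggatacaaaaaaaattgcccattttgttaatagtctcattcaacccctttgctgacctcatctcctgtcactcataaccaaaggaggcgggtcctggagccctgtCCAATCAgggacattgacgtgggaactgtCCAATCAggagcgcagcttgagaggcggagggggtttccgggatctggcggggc
ZNF107: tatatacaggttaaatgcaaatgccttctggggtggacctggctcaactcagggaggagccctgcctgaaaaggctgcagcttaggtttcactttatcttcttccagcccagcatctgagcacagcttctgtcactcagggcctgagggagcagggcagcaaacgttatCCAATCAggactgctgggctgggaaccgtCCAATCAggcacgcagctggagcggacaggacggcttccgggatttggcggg
ZNF138: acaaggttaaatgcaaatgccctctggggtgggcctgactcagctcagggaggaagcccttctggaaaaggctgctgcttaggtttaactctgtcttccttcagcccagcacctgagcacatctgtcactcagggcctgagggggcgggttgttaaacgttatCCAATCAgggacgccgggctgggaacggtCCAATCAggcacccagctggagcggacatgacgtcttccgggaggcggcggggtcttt
The copies began 83 and 54 bases before the start in ZNF678, 81 and 52 in ZNF107, and 87 and 58 in ZNF138. CCAATCA was found on either strand in 6.62% of 35116 promoters and, over all promoters of a gene, in 10.8% of 10408 tested genes and in 15.1% of the members. The paired copies at this distance were rarer. They occurred in 18 of the 10408 tested genes, and 14 of these 18 were members, namely ZNF107, ZNF138, ZNF195, ZNF267, ZNF273, ZNF430, ZNF431, ZNF675, ZNF678, ZNF680, ZNF714, ZNF724, ZNF789 and ZNF92. Of the 14, 13 encode a KRAB box, 6 lie on chromosome 7 and 5 on chromosome 19. They share sequence by descent and are not independent of each other.

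ZNF264 (chr19:57191250-57191499, plus strand), ZNF805 (chr19:57240382-57240631, plus strand) and ZNF460 (chr19:57279732-57279981, plus strand) are KRAB genes that follow each other on chromosome 19 and were all lower in the MEP50 knockdown. Capitals mark ACTACA, the letters that open the long form of the element bound by ZNF143, and ACTTCCG, an ETS-type element, on either strand.
ZNF264: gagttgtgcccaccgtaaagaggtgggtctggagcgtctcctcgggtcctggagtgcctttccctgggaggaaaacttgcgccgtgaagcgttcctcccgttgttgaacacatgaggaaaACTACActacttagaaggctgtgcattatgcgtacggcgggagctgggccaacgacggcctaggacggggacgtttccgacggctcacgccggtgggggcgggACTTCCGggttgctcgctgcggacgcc
ZNF805: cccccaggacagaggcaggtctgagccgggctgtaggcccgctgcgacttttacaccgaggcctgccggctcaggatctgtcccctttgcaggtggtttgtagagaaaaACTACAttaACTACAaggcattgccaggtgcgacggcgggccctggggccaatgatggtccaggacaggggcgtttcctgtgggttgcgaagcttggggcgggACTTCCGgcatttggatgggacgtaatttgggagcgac
ZNF460: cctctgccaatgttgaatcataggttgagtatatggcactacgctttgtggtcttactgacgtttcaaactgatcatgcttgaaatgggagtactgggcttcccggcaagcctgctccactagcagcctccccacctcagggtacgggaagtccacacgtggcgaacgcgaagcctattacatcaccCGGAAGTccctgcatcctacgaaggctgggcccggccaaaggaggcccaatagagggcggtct
ZNF264 had ACTACA at 130 and ACTTCCG at 27 bases before the start. ZNF805 had ACTACA at 141 and 132 and ACTTCCG at 38. ZNF460 had ACTTCCG on the reverse strand at 63, and it has 2 promoter sequences in the RefSeq table, of which 1 is shown. ACTACA occurred in 7.28% of all promoters, 10.3% of tested genes and 24.2% of the members, and in 30.8% of KRAB members against 14.7% of members without KRAB. ACTTCCG occurred in 5.69% of promoters, 13.1% of tested genes and 25.7% of the members.

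ZNF367 (chr9:96418371-96418620, minus strand) and ZNF608 (chr5:124748825-124749074, minus strand) had the most positive and the most negative fold change of the members in the PRMT5 knockdown. Capitals mark TTCCCGC, an E2F-type element, in ZNF367 and the 5 letters CCAAT in ZNF608, on either strand. CCAAT also occurs in ZNF367, on both strands, and in ZNF805 and ZNF460, where it was not marked.
ZNF367: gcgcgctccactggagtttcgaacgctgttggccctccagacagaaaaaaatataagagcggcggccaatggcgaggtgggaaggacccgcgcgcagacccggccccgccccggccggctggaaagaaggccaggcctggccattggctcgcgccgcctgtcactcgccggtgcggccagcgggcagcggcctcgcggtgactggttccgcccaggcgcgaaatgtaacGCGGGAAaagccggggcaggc
ZNF608: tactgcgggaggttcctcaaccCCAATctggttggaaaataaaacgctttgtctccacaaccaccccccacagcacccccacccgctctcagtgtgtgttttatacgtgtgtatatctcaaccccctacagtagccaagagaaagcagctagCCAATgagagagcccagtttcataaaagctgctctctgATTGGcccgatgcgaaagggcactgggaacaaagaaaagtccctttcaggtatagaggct
The E2F-type letters lay 21 bases before the start of ZNF367 on the reverse strand, and 5.52% of promoters, 11.1% of tested genes and 9.81% of the members held them. ZNF608 had CCAAT at 228 and 98 bases before the start and on the reverse strand at 60. The copy on the reverse strand lies in TGATTGG, the reverse complement of CCAATCA. ZNF608 thus holds CCAATCA too, of which only the letters of CCAAT were marked. CCAAT alone, which lies inside CCAATCA, was in 32.0% of promoters, 41.6% of tested genes and 47.5% of the members.

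Reads on genes numbered 25192565 to 31586128 in the PRMT5 knockdown libraries, 20806181 to 28663624 in the MEP50 knockdown libraries and 25075508 to 29461432 in the control libraries. PRMT5 averaged 68.9 CPM in the PRMT5 knockdown, 204 CPM in the MEP50 knockdown and 209 CPM in the control, and WDR77 averaged 44.1, 12.5 and 39.4 CPM in the same order, so each target was low under its own hairpin. Reads outside annotated genes made up 14.2 ± 0.453%, 13.2 ± 0.752% and 12.1 ± 0.296% of counted reads in the PRMT5 knockdown, the MEP50 knockdown and the control (SD, n = 3), and the part of this share in the results was not tested. Of 5 epithelial markers KRT8 and KRT18 made up nearly all of a summed level of 4150 to 4311 CPM in PRMT5 knockdown libraries, 3866 to 4142 CPM in MEP50 knockdown libraries and 6342 to 6573 CPM in control libraries. CDH1 averaged 34.9, 75.6 and 40.1 CPM in the same order, highest with MEP50 knockdown, and KRT19 and EPCAM were at or near 0. Blood and endothelial markers were at or near 0 in every library. Of 3 fibroblast markers PDGFRB and DCN were at or near 0 as well, and LUM alone averaged 0.629, 7.90 and 5.17 CPM. Since whole cultures were measured, fewer cells of a type and less RNA per cell cannot be told apart.

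The members were mostly of low to middling level. Their mean over the control libraries ran from 3.01 to 299 CPM with a median of 14 CPM, against 23.1 CPM for all genes tested. Just above the floor lay ZNF57, ZNF77 and ZNF536 at 3.01, 3.07 and 3.08 CPM, and just below it ZNF846, ZNF350 and ZNF570 at 2.99, 2.98 and 2.91 CPM. Per length of gene, ZNF146 was the highest, with 72.2 CPM per kilobase in the PRMT5 knockdown, 64.3 in the MEP50 knockdown and 64.1 in the control. ZNF146 (OZF) consists of little but 10 fingers. ZNF664, ZNF622, ZNF593, ZNF281 and ZNF503 followed at 35.4, 27.4, 25.5, 25.5 and 20.7 CPM per kilobase in the control. Relatives of ZNF622 and ZNF593 in yeast act in the maturation of the large ribosomal subunit, and ZNF281 is a transcription factor linked to stem cell state.

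By their protein, 178 members encode a KRAB box (11 of them with SCAN too), 10 a SCAN domain alone and 118 neither. The number of fingers per protein ran from 0 to 34 with a median of 10, and the median was 12 in KRAB members and 7 in members without KRAB. KRAB members were expressed at a median of 11.2 CPM in the control and members without KRAB at 20.8 CPM. Median GC content of the genes was 43.1% in KRAB members, 51.3% in members without KRAB and 48.0% in all genes tested. Chromosome 19 held 120 members (39.2%), of which 95 encode a KRAB box, chromosome 16 held 25 and chromosome 7 held 22. Neighbours of common descent share sequence, among them the lettered pairs ZNF33A and ZNF33B, ZNF286A and ZNF286B, and ZNF585A and ZNF585B. The counting may have split reads between such copies, and its strand setting is not given in the sources used here, so values of single duplicated or overlapping genes are uncertain.

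Knockdown of PRMT5 moved ZNF genes both ways, with rises ahead of falls. Of the 306 members, 67 exceeded the control and 43 fell below it (21.9% and 14.1%) by the quasi-likelihood test of edgeR, with p-values adjusted by Benjamini-Hochberg over all genes and a threshold of 0.05. Over all genes tested 26.1% were higher and 24.9% lower, 51.0% in all, so a smaller share of the members passed than of genes at large. Their median log2 fold change was 0.055, against 0.003 over all genes, and it was 0.030 without PRMT5 knockdown library 1. Only 2 members passed the test at 2-fold or more (7.25% of all genes did), namely ZNF367 and ZNF608. Without overlap between the libraries of both groups were 101 members past the test, where 48.7% of all genes were. Since the rule used the control level, the counts against the control are given as a description.

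Knockdown of MEP50 moved more ZNF genes down than up. Of the members, 37 passed the test upward and 89 downward against the control (12.1% and 29.1%), where 26.5% and 25.2% of all genes were, 51.7% in all. The median log2 fold change was -0.068, against -0.002 over all genes. Those at 2-fold or more were 3 members, where 7.51% of all genes were: ZNF367 higher, and ZNF483 and ZNF805 lower. Past the test without overlap were 119 members, where 49.0% of all genes were.

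Set directly against each other, the knockdowns differed in one direction for most ZNF genes that differed at all. With PRMT5 knockdown over MEP50 knockdown, 100 members were higher and 18 lower (32.7% and 5.88%), where 19.2% of all genes were higher and 20.5% lower, 39.7% in all. The share past the test in either direction was thus close to that of all genes, and the sides were uneven. Past the test without overlap were 110 members, where 37.2% of all genes were. The median log2 difference was 0.127 for the members and 0.001 for all genes, and 216 members had a positive difference and 90 a negative one. No library of this comparison entered the rule. ZNF483 and ZNF608 were the 2 members past the test at 2-fold or more (3.19% of all genes).

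Library by library, the members as a whole were summarised by their median log2 CPM relative to each gene's mean over the 9 libraries. This median was 0.063, 0.055 and 0.070 in the PRMT5 knockdown libraries, -0.029, -0.082 and -0.075 in the MEP50 knockdown libraries and 0.019, 0.020 and 0.014 in the control libraries. The 3 groups did not overlap, with every PRMT5 knockdown library above and every MEP50 knockdown library below the control libraries. All members together made up 7971 ± 47.6 CPM in the PRMT5 knockdown, 7392 ± 119 CPM in the MEP50 knockdown and 7733 ± 6.95 CPM in the control (SD, n = 3 each).

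**Figure D1:**
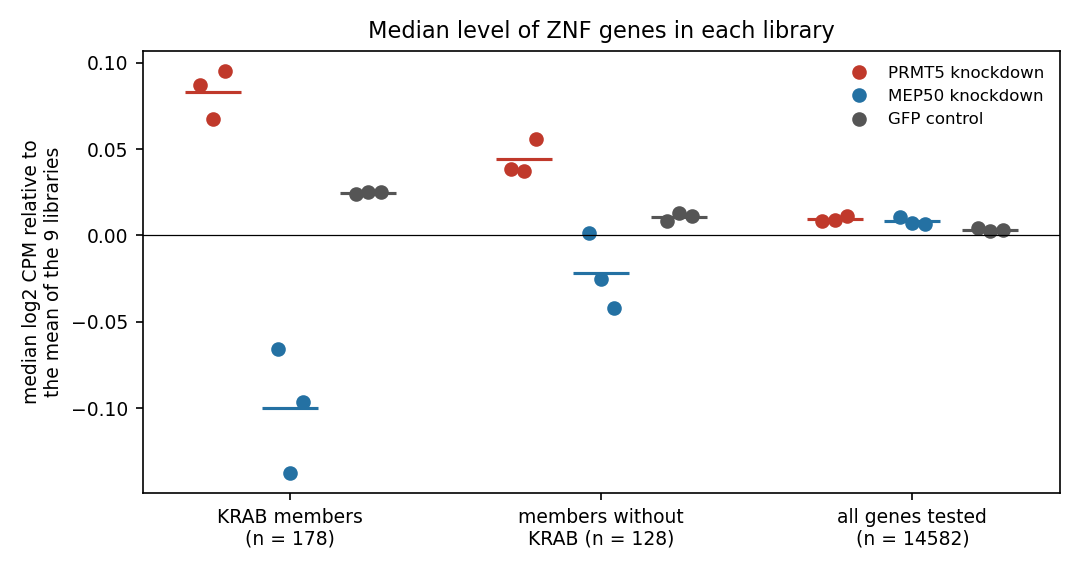
Median log2 CPM relative to each gene's mean over the 9 libraries (y axis), for KRAB members, members without KRAB and all genes tested; each point is 1 library and bars are group means. KRAB members sat at 0.068 to 0.095 in PRMT5 knockdown libraries, at -0.137 to -0.066 in MEP50 knockdown libraries and at 0.024 to 0.025 in control libraries, while all genes stayed near 0.

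By protein class, most members that differed between the knockdowns were higher with PRMT5 knockdown, both with KRAB and without it. Among the 178 KRAB members, 35 were higher and 18 lower in the PRMT5 knockdown than in the control, and 14 higher and 54 lower in the MEP50 knockdown, with median log2 fold changes of 0.053 and -0.112. The shares were 19.7% and 10.1%, and 7.87% and 30.3%. For all genes tested they were 26.1% and 24.9%, and 26.5% and 25.2%. Directly, 60 KRAB members were higher and 5 lower (33.7% and 2.81%) with PRMT5 knockdown than with MEP50 knockdown, where 19.2% and 20.5% of all genes were. Their median difference was 0.152. Of these counts, the 18 were 11 without control library 2, and the 5 were 2 without PRMT5 knockdown library 1 and 3 without MEP50 knockdown library 2 or 3. The median of 0.053 was 0.030 without PRMT5 knockdown library 1 and 0.034 without control library 3. The 128 members without KRAB split 32 higher and 25 lower with PRMT5 knockdown, 23 and 35 with MEP50 knockdown, and 40 and 13 between the knockdowns, with medians of 0.060, -0.015 and 0.063. Without PRMT5 knockdown library 3 the 40 were 26. With single libraries left out, the median of 0.060 ran from 0.024 (without PRMT5 knockdown library 1) to 0.058, and that of -0.015 from -0.046 (without MEP50 knockdown library 1) to -0.008 (without MEP50 knockdown library 2). Whether the classes differ from each other was not tested. KRAB members summed to 2980 ± 15 CPM in the PRMT5 knockdown, 2629 ± 53.2 CPM in the MEP50 knockdown and 2866 ± 11.4 CPM in the control (SD, n = 3). Since GC content differs between the classes, each library was also corrected for a smooth trend of log counts on GC, and 56 KRAB members were then higher and 5 lower between the knockdowns, with a median of 0.152.

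The KRAB members were also divided by chromosome. The 95 KRAB members on chromosome 19 had 11 higher and 12 lower with PRMT5 knockdown and 2 higher and 29 lower with MEP50 knockdown, with medians of -0.023 and -0.177. The first of these medians was above 0 without PRMT5 knockdown library 1 or 3 (0.015 and 0.007) or control library 1 (0.013). The 83 KRAB members elsewhere had 24 higher and 6 lower with PRMT5 knockdown and 12 higher and 25 lower with MEP50 knockdown, with medians of 0.090 and -0.054. Between the knockdowns 31 were higher and 2 lower on chromosome 19 (32.6% and 2.11%) and 29 higher and 3 lower elsewhere (34.9% and 3.61%). Of all genes tested 19.2% were higher and 20.5% lower. Against the control, 11.6% and 12.6% on chromosome 19 and 28.9% and 7.23% elsewhere were higher and lower with PRMT5 knockdown. With MEP50 knockdown the shares were 2.11% and 30.5% on chromosome 19 and 14.5% and 30.1% elsewhere. For all genes they were 26.1% and 24.9% with PRMT5 knockdown and 26.5% and 25.2% with MEP50 knockdown. With MEP50 knockdown library 2 left out, the 31 were 19, and the 11 were 7 without PRMT5 knockdown library 1 and 6 without control library 3. The 6 lower elsewhere were 3 without PRMT5 knockdown library 3 or control library 2. Between the knockdowns the 2 lower on chromosome 19 were 1 without PRMT5 knockdown library 1 or 3, and the 3 lower elsewhere were 1 without PRMT5 knockdown library 1 or 2 or MEP50 knockdown library 2 or 3. The other protein-coding genes of chromosome 19, of which 702 were tested, split 125 higher and 146 lower between the knockdowns with a median of -0.010. Members with 13 or more fingers had 34 higher and 2 lower between the knockdowns (101 members, median 0.161), those with 6 to 12 fingers 50 and 6 (140 members, median 0.139) and those with 0 to 5 fingers 16 and 10 (65 members, median 0.018, or 0.009 to 0.028 with single libraries left out). Without MEP50 knockdown library 2 the 50 were 30, and the 2 lower among members with 13 or more fingers were 0 without MEP50 knockdown library 1 and 1 without PRMT5 knockdown library 3 or MEP50 knockdown library 3.

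**Figure D2:**
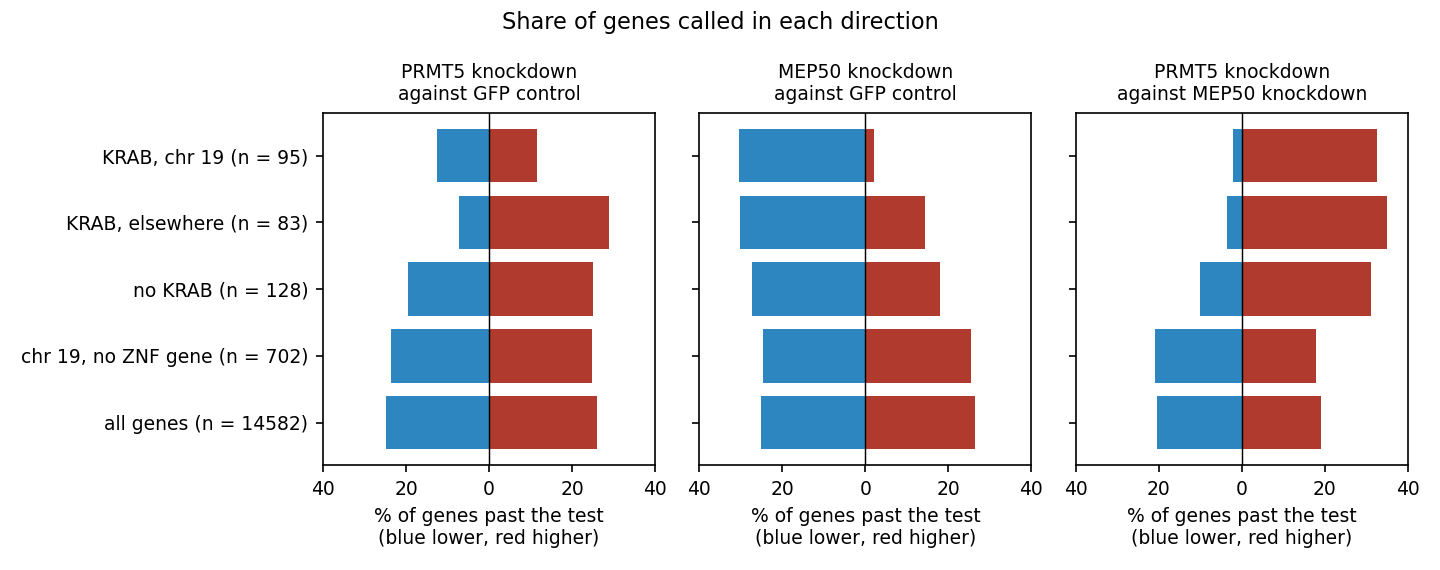
Share of genes past the test (x axis, %; red higher, blue lower) in the 3 comparisons, for KRAB members on chromosome 19 and elsewhere, members without KRAB, other coding genes of chromosome 19 and all genes tested. Between the knockdowns the 3 ZNF groups have longer bars on the higher side, while the 2 lower rows are close to even on both sides.

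Both knockdowns were measured against the same control libraries, so agreement between them is given as counts and not as evidence. Of the members, 25 were higher in both knockdowns, where 17.7% of all genes were, and 29 were lower in both, where 15.5% of all genes were. A further 37 were higher with PRMT5 knockdown alone and 14 lower with it alone, 12 were higher with MEP50 knockdown alone and 55 lower with it alone, and 129 passed neither test. Of the 55 that were lower with MEP50 knockdown alone, 42 also passed the direct test of the knockdowns against each other, and 35 encode a KRAB box. Higher with PRMT5 knockdown and lower with MEP50 knockdown were 5 members, ZNF107, ZNF12, ZNF138, ZNF678 and ZNF714, where 1.19% of all genes were. In the opposite way went 0 members by edgeR at the adjusted threshold and 0 by DESeq2, and 1 at an unadjusted p under 0.05, where 1.43% of all genes did by the adjusted threshold.

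**Figure D3:**
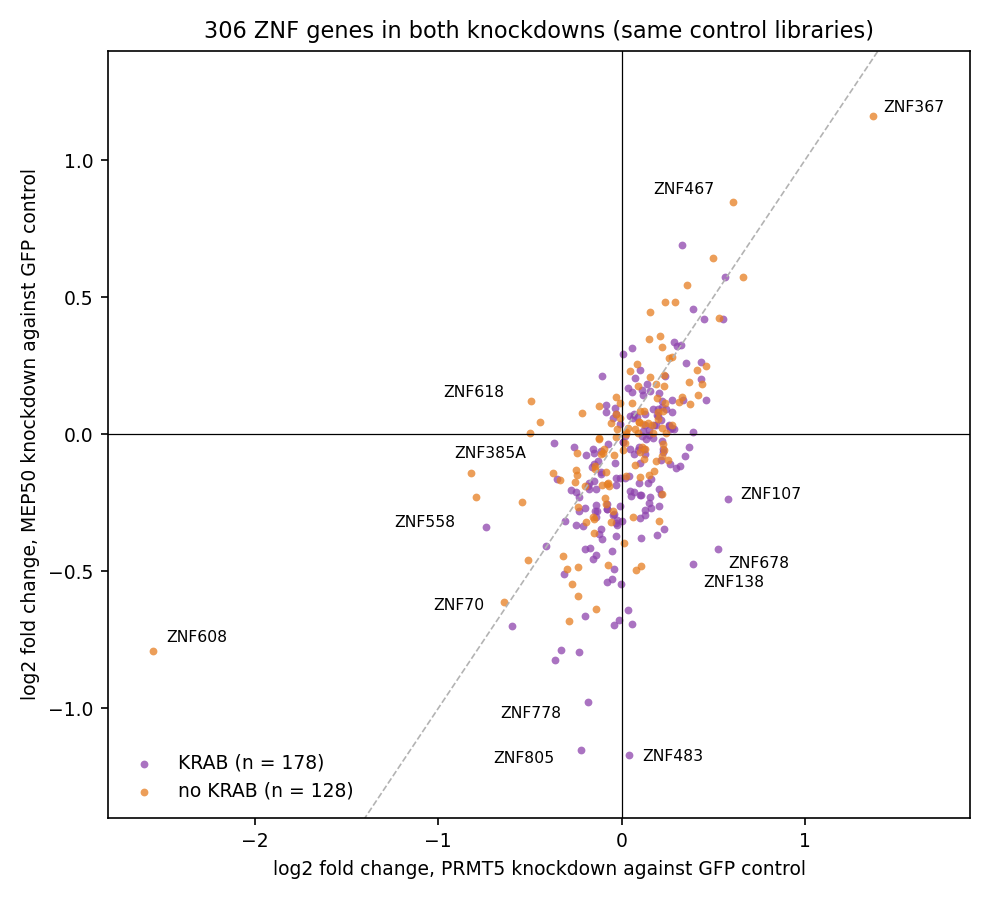
Log2 fold change against the GFP control with PRMT5 knockdown (x axis) and with MEP50 knockdown (y axis) for the 306 members, by KRAB box; the dashed line is equality, and both axes share the control libraries. More KRAB members lie below the dashed line than above it, ZNF367 stands out at the upper right, ZNF608 at the far left, and ZNF483, ZNF805 and ZNF778 at the bottom.

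ZNF367, a protein of few fingers with no KRAB box, had the highest fold change of the members in both knockdowns. It was measured at 33.9, 32.1 and 30.5 CPM in PRMT5 knockdown libraries, at 27.1, 27.4 and 28.6 CPM in MEP50 knockdown libraries and at 11.6, 13.1 and 12.5 CPM in control libraries. All 6 knockdown libraries lay above all 3 control libraries. The log2 fold change was 1.37 ± 0.0746 with PRMT5 knockdown (SE, adjusted p = 4.7e-19, edgeR) and 1.16 ± 0.0768 with MEP50 knockdown (adjusted p = 2.23e-16). Between the knockdowns it was 0.21 higher with PRMT5 knockdown (adjusted p = 0.0135, edgeR), a call lost without PRMT5 knockdown library 1 (adjusted p = 0.0943) or without MEP50 knockdown library 1 or 2 (adjusted p = 0.0545 and 0.0564).

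Other members without KRAB that were higher in both knockdowns were ZNF467, ZNF710, ZNF703 and ZNF280D. The mouse relative of ZNF467 acts in the choice between fat and bone fate, and ZNF703 is a corepressor of the NET family. ZNF467 had 10.8, 9.61 and 10.1 CPM with PRMT5 knockdown and 12.5, 12.2 and 11.4 CPM with MEP50 knockdown, against 6.78, 6.24 and 6.99 CPM in the control. The knockdown libraries again lay clear of the control, with log2 fold changes of 0.61 ± 0.109 and 0.85 ± 0.11 (SE, adjusted p = 1.16e-05 and 1.84e-08, edgeR). ZNF710 rose by 0.66 and 0.57, ZNF703 by 0.50 and 0.64 and ZNF280D by 0.53 and 0.42 on the log2 scale in the PRMT5 and the MEP50 knockdown. Of the KRAB members, ZNF25 rose by 0.56 and 0.58, and ZNF202, a SCAN-KRAB repressor of genes of lipid metabolism, by 0.55 and 0.42. ZNF333, a KRAB gene, was 0.69 higher with MEP50 knockdown and 0.33 higher with PRMT5 knockdown, where it did not pass the test (adjusted p = 0.102, edgeR). ZNF536 was 0.55 higher with MEP50 knockdown, a call lost without MEP50 knockdown library 1 (adjusted p = 0.0845) or control library 3 (adjusted p = 0.125).

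ZNF608, whose mouse relative represses Rag genes in thymocytes, had the lowest fold change of the members in the PRMT5 knockdown. Its levels were 0.868, 1.23 and 1.83 CPM with PRMT5 knockdown, 3.96, 5.75 and 3.98 CPM with MEP50 knockdown and 6.90, 7.75 and 8.87 CPM in the control. The 3 groups did not overlap and stood in that order. The log2 fold change was -2.56 ± 0.196 with PRMT5 knockdown (SE, adjusted p = 2.77e-14, edgeR) and -0.79 ± 0.17 with MEP50 knockdown (adjusted p = 0.000138), and the direct difference was -1.77 ± 0.212 (adjusted p = 7.34e-09). These values rest on 118, 318 and 648 reads summed over the 3 libraries of each group.

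ZNF385A (Hzf), an RNA-binding protein of the p53 pathway, was lower with PRMT5 knockdown. It had 10.2, 9.84 and 10.4 CPM with PRMT5 knockdown, 14.8, 17.8 and 16.2 CPM with MEP50 knockdown and 17.8, 18.1 and 17.9 CPM in the control. The PRMT5 knockdown libraries lay below all others, by -0.82 ± 0.0893 against the control and -0.68 ± 0.0916 against MEP50 knockdown (log2, SE, adjusted p = 3.06e-10 and 7.87e-08, edgeR), while the MEP50 knockdown value of -0.14 did not pass (adjusted p = 0.182). ZNF503, a NET-family corepressor related to ZNF703, ZNF618, a partner of UHRF2, and ZNF219 were likewise lower with PRMT5 knockdown than in both other groups, and their values with MEP50 knockdown did not pass against the control. ZNF503 averaged 49.3 ± 2.74 CPM with PRMT5 knockdown, 69.5 ± 6.59 CPM with MEP50 knockdown and 69.4 ± 2.8 CPM in the control (SD, n = 3), and ZNF618 averaged 31.3 ± 1.37, 48.0 ± 2.33 and 44.1 ± 1.11 CPM. Both were lower with PRMT5 than with MEP50 knockdown, by -0.50 and -0.61 on the log2 scale (adjusted p = 2.09e-09 and 1.39e-11, edgeR). ZNF697 fell by 0.79, ZNF558 by 0.74, ZNF70 by 0.64, ZNF789 by 0.60, ZNF576 by 0.54 and ZNF804A by 0.51 on the log2 scale in the PRMT5 knockdown. With MEP50 knockdown ZNF558, ZNF70, ZNF789 and ZNF804A were called lower too, and ZNF697 and ZNF576 were not called. The MEP50 call of ZNF558 was lost without MEP50 knockdown library 3 (adjusted p = 0.0657, edgeR). That of ZNF804A was lost without control library 2 (adjusted p = 0.0713).

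Of the 5 members called on opposite sides of the control, 4 encode a KRAB box, and none was found in ZNF714. ZNF678 had 36.9, 37.1 and 32.9 CPM with PRMT5 knockdown, 18.6, 17.2 and 19.4 CPM with MEP50 knockdown and 25.4, 24.8 and 23.9 CPM in the control. No library of one group entered the range of another. The log2 fold changes were 0.53 ± 0.068 with PRMT5 knockdown and -0.42 ± 0.0742 with MEP50 knockdown (SE, adjusted p = 1.73e-08 and 7.36e-06, edgeR), and the knockdowns differed by 0.95 ± 0.0716 (adjusted p = 3.77e-14).

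ZNF107 had 25.1, 22.9 and 27.7 CPM with PRMT5 knockdown, 15.8, 14 and 13.3 CPM with MEP50 knockdown and 17.2, 15.9 and 17.6 CPM in the control. The PRMT5 knockdown libraries lay clear above, whereas the highest MEP50 knockdown library, at 15.8 CPM, was next to the lowest control library, at 15.9 CPM. Against the control the log2 fold changes were 0.58 (adjusted p = 1.48e-07, edgeR) and -0.24 (adjusted p = 0.0242), and the second call was lost without MEP50 knockdown library 2 or 3 (adjusted p = 0.0678 and 0.125), without control library 1 or 3 (adjusted p = 0.0623 and 0.0939) and with the GC correction (adjusted p = 0.0698). ZNF138 had 8.76, 9.32 and 11.0 CPM with PRMT5 knockdown, 6.04, 5.61 and 4.54 CPM with MEP50 knockdown and 6.98, 6.71 and 8.58 CPM in the control. The groups did not overlap, with log2 fold changes of 0.39 and -0.47 (adjusted p = 0.00956 and 0.0042, edgeR). Without PRMT5 knockdown library 3 (adjusted p = 0.102) or control library 2 (adjusted p = 0.0687) the rise was lost, and without MEP50 knockdown library 3 (adjusted p = 0.0519) or control library 3 (adjusted p = 0.0534) the fall was lost. Between the knockdowns ZNF107 differed by 0.82 ± 0.0859 and ZNF138 by 0.86 ± 0.135 (log2, SE, adjusted p = 2.87e-10 and 1.65e-06, edgeR). ZNF12 had log2 fold changes of 0.20 with PRMT5 knockdown and -0.26 with MEP50 knockdown and differed by 0.47 between the knockdowns, and its calls held in every alternative run. ZNF714 differed by 0.52 between the knockdowns, but its rise of 0.20 with PRMT5 knockdown (adjusted p = 0.0455, edgeR) was lost in 11 of 19 alternatives, with DESeq2 (adjusted p = 0.0812) and without each PRMT5 knockdown library (adjusted p = 0.0517, 0.0583 and 0.249), MEP50 knockdown library 2 or 3 (adjusted p = 0.0506 and 0.0541) or control library 2 or 3 (adjusted p = 0.326 and 0.0576) among them.

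**Figure D4:**
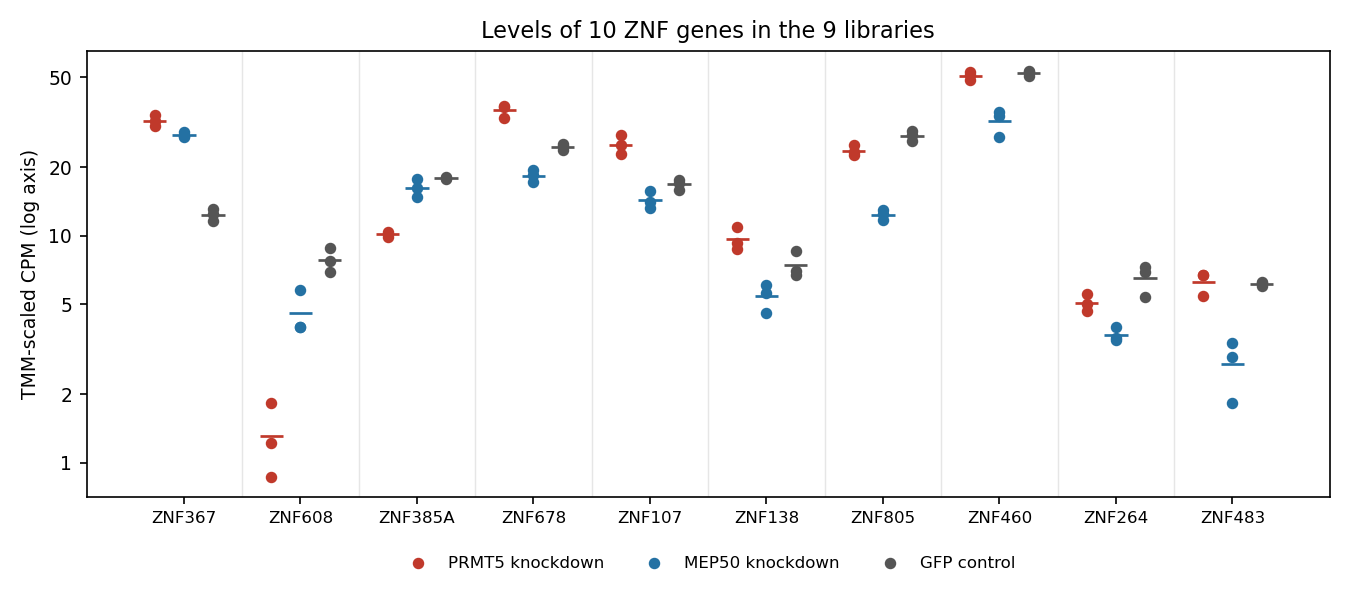
Level in CPM (log axis) of 10 members in each library of the PRMT5 knockdown, the MEP50 knockdown and the GFP control; points are libraries and bars are group means. ZNF367 is high in both knockdowns, ZNF608 and ZNF385A are lowest with PRMT5 knockdown, ZNF678, ZNF107 and ZNF138 lie on either side of the control, and ZNF805, ZNF460, ZNF264 and ZNF483 are lowest with MEP50 knockdown.

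The 14 members with paired CCAATCA in the promoter had 7 higher and 2 lower in the PRMT5 knockdown, 1 higher and 9 lower in the MEP50 knockdown, and 10 higher and 0 lower between the knockdowns (also 0 lower by edgeR at an unadjusted p under 0.05 and by DESeq2). Their median log2 fold changes were 0.169, -0.304 and 0.289. All genes tested were 26.1% higher and 24.9% lower, 26.5% and 25.2%, and 19.2% and 20.5% in the same comparisons. Between the knockdowns 32.7% of all 306 members were higher and 5.88% lower. ZNF107, ZNF138, ZNF678 and ZNF714 are among them, and these were known to differ when the motif was chosen, so the counts describe these genes and support nothing. Without control library 2 the 7 were 4, and without PRMT5 knockdown library 3 the 2 were 1. The 1 that was higher with MEP50 knockdown, ZNF273, was lost without any 1 of 7 libraries, all but PRMT5 knockdown library 3 and MEP50 knockdown library 2. Members with CCAATCA in any number (40) had 17 higher and 4 lower between the knockdowns with a median of 0.171, and those without it (225) had 72 higher and 10 lower with a median of 0.126. Members with ACTACA (64) had 22 higher and 2 lower with a median of 0.149, and those without it (201) had 67 and 12 with a median of 0.128.

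Several KRAB genes fell with MEP50 knockdown and, with PRMT5 knockdown, lay near the control or fell less. ZNF805 had 23.3, 25 and 22.6 CPM with PRMT5 knockdown, 13, 11.7 and 12.5 CPM with MEP50 knockdown and 28.9, 26.2 and 27.8 CPM in the control. The MEP50 knockdown libraries lay far below the other 6. The log2 fold change was -0.22 ± 0.072 with PRMT5 knockdown and -1.15 ± 0.0797 with MEP50 knockdown (SE, adjusted p = 0.00901 and 8.54e-16, edgeR), and the direct difference was 0.93 ± 0.0803 (adjusted p = 1.65e-12). Its neighbour ZNF460 had 51.1, 52.7 and 48.6 CPM with PRMT5 knockdown, 27.2, 33.8 and 35.2 CPM with MEP50 knockdown and 53.2, 52.9 and 50.5 CPM in the control. Here PRMT5 knockdown overlapped the control (log2 fold change -0.04, adjusted p = 0.622, edgeR), and MEP50 knockdown was lower than both (-0.70 against the control, adjusted p = 1.37e-11).

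ZNF264, on the other side of ZNF805, had 5.01, 5.52 and 4.64 CPM with PRMT5 knockdown, 3.53, 3.46 and 3.98 CPM with MEP50 knockdown and 6.90, 5.39 and 7.28 CPM in the control. MEP50 knockdown was below both other groups, by -0.82 ± 0.154 against the control (log2, SE, adjusted p = 1.84e-05, edgeR). Its difference of 0.46 between the knockdowns (adjusted p = 0.0179) was lost without PRMT5 knockdown library 2 (adjusted p = 0.0883) or MEP50 knockdown library 1 or 2 (adjusted p = 0.0538 and 0.0707). The value of -0.36 with PRMT5 knockdown (adjusted p = 0.0318) was lost without PRMT5 knockdown library 1 or 3 (adjusted p = 0.0575 and 0.12) and without control library 1 or 3 (adjusted p = 0.097 and 0.152). Of the genes around these 3 on the chromosome, AURKC, between ZNF264 and ZNF805, averaged 0.0359 CPM in the control and was not tested, and ZNF543, a ZNF gene under the floor that follows ZNF460, was at -0.15 with MEP50 knockdown (adjusted p = 0.624, edgeR).

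ZNF483, a SCAN-KRAB gene, had 5.44, 6.71 and 6.69 CPM with PRMT5 knockdown, 3.38, 1.82 and 2.92 CPM with MEP50 knockdown and 6.23, 6.17 and 5.98 CPM in the control. All 3 MEP50 knockdown libraries lay under the other 6, by -1.17 ± 0.17 against the control and with a direct difference of 1.21 ± 0.169 between the knockdowns (log2, SE, adjusted p = 2.11e-07 and 1.71e-07, edgeR). ZNF778 had 7.65, 6.58 and 7.67 CPM with PRMT5 knockdown, 4.98, 3.97 and 3.77 CPM with MEP50 knockdown and 7.78, 7.96 and 9.09 CPM in the control. Its log2 fold change was -0.98 ± 0.14 with MEP50 knockdown (adjusted p = 1.52e-07, edgeR), while -0.18 with PRMT5 knockdown did not pass (adjusted p = 0.236). ZNF101, another KRAB gene, fell to 6.01 ± 0.179 CPM with MEP50 knockdown, against 10.5 ± 0.572 CPM in the control (SD, n = 3).

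The KRAB genes with a known target or partner, a list of 10 of which 8 were members, had 1 higher and 1 lower in the PRMT5 knockdown, 0 higher and 3 lower in the MEP50 knockdown, and 4 higher and 0 lower between the knockdowns. Of all genes tested 26.1% were higher and 24.9% lower, 26.5% and 25.2%, and 19.2% and 20.5% in the same comparisons. The 4 were 2 without MEP50 knockdown library 2, and the 1 higher with PRMT5 knockdown was 2 without control library 3. Both counts of 0 were also 0 by edgeR at an unadjusted p under 0.05 and by DESeq2. Imprinted ZNF331 averaged 9.91 ± 0.76 CPM with PRMT5 knockdown, 7.27 ± 1.5 CPM with MEP50 knockdown and 12.5 ± 1.7 CPM in the control (SD, n = 3), and its log2 fold change was -0.79 with MEP50 knockdown (adjusted p = 9.94e-07, edgeR). Its fall of 0.33 with PRMT5 knockdown was lost without PRMT5 knockdown library 2 (adjusted p = 0.0765) or control library 1 (adjusted p = 0.132), and its difference of 0.45 between the knockdowns was lost without MEP50 knockdown library 2 (adjusted p = 0.0503). ZNF10 (KOX1), whose KRAB box is the one used in artificial repressors, fell by 0.66 on the log2 scale with MEP50 knockdown (adjusted p = 0.00123, edgeR) and had -0.20 with PRMT5 knockdown (adjusted p = 0.32). ZNF33A rose by 0.22 with PRMT5 knockdown and had -0.03 with MEP50 knockdown. ZNF282 had -0.01 with PRMT5 knockdown and -0.16 with MEP50 knockdown, a call (adjusted p = 0.0419, edgeR) lost with the GC correction (adjusted p = 0.0629), without MEP50 knockdown library 1 or 2 (adjusted p = 0.114 and 0.104) and without control library 1 or 2 (adjusted p = 0.122 and 0.097).

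Among the SCAN proteins of a second list (6 members of 7), 2 were higher and 1 lower in the PRMT5 knockdown, 1 higher and 3 lower in the MEP50 knockdown, and 4 higher and 0 lower between the knockdowns (also 0 lower by edgeR at an unadjusted p under 0.05 and by DESeq2). All genes had 26.1% higher and 24.9% lower, 26.5% and 25.2%, and 19.2% and 20.5% in the same comparisons. The 4 were 2 without PRMT5 knockdown library 1 or without MEP50 knockdown library 3, and the 2 higher with PRMT5 knockdown were 1 without PRMT5 knockdown library 1. ZNF24, a SCAN protein that holds neural progenitors in cycle in the mouse, had 126, 115 and 116 CPM with PRMT5 knockdown, 101, 94.9 and 97.8 CPM with MEP50 knockdown and 144, 138 and 147 CPM in the control. The groups did not overlap, and the log2 fold changes were -0.27 and -0.55 (adjusted p = 1.38e-07 and 3.52e-15, edgeR). ZNF274, which brings SETDB1 to the ends of other ZNF genes, averaged 31.0 ± 2 CPM with PRMT5 knockdown, 27.4 ± 1.63 CPM with MEP50 knockdown and 32.6 ± 1.21 CPM in the control (SD, n = 3). Its fall of 0.25 on the log2 scale with MEP50 knockdown passed the test (adjusted p = 0.00158, edgeR), and -0.08 with PRMT5 knockdown did not (adjusted p = 0.336). The fall of ZNF174 by 0.30 with MEP50 knockdown was lost without MEP50 knockdown library 3 (adjusted p = 0.0609) or control library 3 (adjusted p = 0.0558).

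DNA-binding regulators without KRAB, a list of 29 of which 25 were members, had 10 higher and 8 lower in the PRMT5 knockdown, 7 higher and 7 lower in the MEP50 knockdown, and 6 higher and 5 lower between the knockdowns. The shares were 40% and 32%, 28% and 28%, and 24% and 20%. For all genes they were 26.1% and 24.9%, 26.5% and 25.2%, and 19.2% and 20.5%. The 6 were 3 without PRMT5 knockdown library 1 or without MEP50 knockdown library 2. ZNF410, ZNF423, ZNF521 and ZNF750 lay under the floor. ZNF367, ZNF608, ZNF467 and ZNF703, described above, had the largest changes of this list. ZNF143, which binds the ACTACA element, had -0.09 with PRMT5 knockdown (adjusted p = 0.29, edgeR) and fell by 0.25 with MEP50 knockdown (adjusted p = 0.00165). ZNF217, an amplified oncogene of breast tumours, averaged 131 ± 6.52 CPM with PRMT5 knockdown, 115 ± 4.34 CPM with MEP50 knockdown and 98.1 ± 1.77 CPM in the control (SD, n = 3), and rose by 0.41 and 0.23 on the log2 scale (adjusted p = 8.18e-12 and 4.57e-06, edgeR).

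The 14 members with roles in RNA, translation, division or ubiquitin had 3 higher and 3 lower in the PRMT5 knockdown, 4 higher and 5 lower in the MEP50 knockdown, and 6 higher and 3 lower between the knockdowns. The shares were 21.4% and 21.4%, 28.6% and 35.7%, and 42.9% and 21.4%. For all genes they were 26.1% and 24.9%, 26.5% and 25.2%, and 19.2% and 20.5%. The 6 were 3 without PRMT5 knockdown library 1, and the 4 higher with MEP50 knockdown were 2 without MEP50 knockdown library 3. ZNF451, a SUMO ligase, had 74.4, 80.4 and 73.5 CPM with PRMT5 knockdown, 53.7, 52.2 and 55.3 CPM with MEP50 knockdown and 85.0, 83.1 and 83.2 CPM in the control. The MEP50 knockdown libraries lay far below the other 6, with log2 fold changes of -0.64 with MEP50 knockdown and -0.14 with PRMT5 knockdown (adjusted p = 2.83e-15 and 0.00749, edgeR). ZNF318, needed in mouse B cells for the splicing that yields IgD, rose by 0.48 with MEP50 knockdown (adjusted p = 3.84e-08, edgeR) and by 0.24 with PRMT5 knockdown (adjusted p = 0.00198). The smaller of these was lost without PRMT5 knockdown library 3 (adjusted p = 0.0578). ZNF593 fell by 0.36 with MEP50 knockdown (adjusted p = 0.000541, edgeR). The LIM protein ZNF185 was 0.48 higher with MEP50 knockdown, a call lost without MEP50 knockdown library 2 (adjusted p = 0.074) or control library 2 (adjusted p = 0.154).

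Neighbouring members were followed in runs of at least 3 that no other protein-coding gene of the count table interrupts. There were 19 such runs, holding 77 members, with 12 of them on chromosome 19 and the longest of 6 members. Between the knockdowns 26 of the 77 members of runs were higher and 0 lower (also 0 lower by edgeR at an unadjusted p under 0.05 and by DESeq2). Of all 306 members 32.7% were higher and 5.88% lower, and of all genes tested 19.2% and 20.5%. Whether members of runs differ from the other members was not tested. On chromosome 7 the run of ZNF680, ZNF107, ZNF138 and ZNF273 had log2 differences of 0.46, 0.82, 0.86 and 0.09, the last not past the test. On chromosome 19 the run of ZNF430, ZNF714, ZNF431 and ZNF708 had 0.15, 0.52, 0.43 and 0.58, the first not past the test. Members of a run did not all move alike, since ZNF764 differed by 0.55 while its neighbours ZNF768, ZNF747 and ZNF688 on chromosome 16 had 0.05, 0.03 and 0.05 and did not pass.

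**Figure D5:**
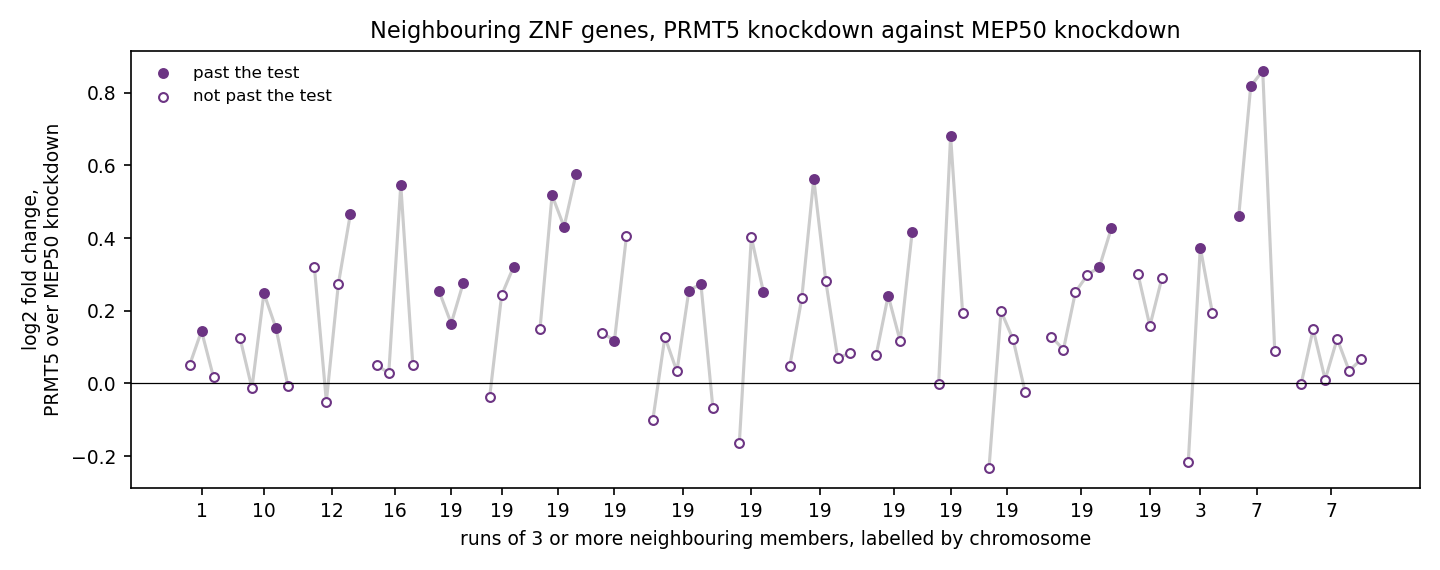
Log2 fold change of PRMT5 knockdown over MEP50 knockdown (y axis) for members in 19 runs of 3 or more neighbours, with each run joined by a line and labelled by its chromosome; filled points passed the test. Filled points are all above 0, and the highest, at 0.82 and 0.86, are ZNF107 and ZNF138 on chromosome 7.

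The machinery through which KRAB proteins silence was measured too. Of 15 of its genes that were tested (of 16 listed), 10 were higher and 2 lower in the PRMT5 knockdown, 6 higher and 2 lower in the MEP50 knockdown, and 6 higher and 1 lower between the knockdowns. All genes tested, as given above, were 26.1% higher and 24.9% lower, 26.5% and 25.2%, and 19.2% and 20.5% in the same comparisons. The list was chosen with earlier results known. The 1 lower was 2 without MEP50 knockdown library 1 or 3 or control library 1 or 3. TRIM28, the scaffold bound by KRAB, averaged 552 ± 14.3 CPM with PRMT5 knockdown, 573 ± 20 CPM with MEP50 knockdown and 501 ± 5.17 CPM in the control (SD, n = 3), and rose by 0.14 and 0.19 on the log2 scale (adjusted p = 6.14e-05 and 2.05e-07, edgeR). SETDB1, the methyltransferase, averaged 62.9 ± 1.51 CPM with PRMT5 knockdown, 52.9 ± 1.14 CPM with MEP50 knockdown and 64.8 ± 0.921 CPM in the control. It fell by 0.29 with MEP50 knockdown (adjusted p = 1.38e-06, edgeR), while -0.04 with PRMT5 knockdown did not pass (adjusted p = 0.462). CBX1, an HP1 protein, rose by 0.34 and 0.36, and the remodeller SMARCAD1 fell by 0.17 and 0.37 with PRMT5 and MEP50 knockdown. DAXX, the histone chaperone, rose by 0.42 with PRMT5 knockdown and by 0.27 with MEP50 knockdown, the second call being lost without control library 1 or 3 (adjusted p = 0.0711 and 0.0589). Of 11 corepressors used by other zinc finger proteins, 6 were higher and 2 lower with PRMT5 knockdown and 7 higher and 1 lower with MEP50 knockdown (the 2 were 1 without PRMT5 knockdown library 2), among them KDM1A at 0.33 and 0.40, EHMT1 at 0.27 and 0.35 and RCOR1 at -0.27 and -0.38.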

How the data were processed

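RNA from A549 cells was sequenced as total RNA after rRNA depletion with a stranded library kit, per the labels' protocols. The authors' deposited table holds the number of reads counted on each Ensembl gene, as whole-number counts. Per the submitters' processing notes, Trim Galore, STAR and HTSeq were used on hg19, with DESeq2 and edgeR after them, and versions and the strand setting of counting are not given in the sources used here. The authors also deposited a table for each knockdown against the control with log2 fold changes and adjusted p-values, per the file headers, and these were used only to check the counts, none of which differed. For PRMT5 knockdown they list 87 members, 56 higher and 31 lower, among 6807 genes, 3415 higher and 3392 lower. For MEP50 knockdown they list 110 members, 33 higher and 77 lower, among 6832 genes, 3541 higher and 3291 lower.

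The 5 summary lines of HTSeq were left out. GENCODE release 29 named 45025 of 51796 identifiers (86.9%) and gave gene length, GC content and coding sequences, in which KRAB and SCAN domains were found by profile and fingers by pattern. It is built on GRCh38, so no gene coordinates are given but those of the RefSeq promoters. Counts were fitted with edgeR 4.0.16 in R 4.3.3, all 9 libraries in 1 model with group as the only term, TMM scaling, filterByExpr and Benjamini-Hochberg adjustment at 0.05 over 14582 genes. Levels are TMM-scaled CPM with the SD over 3 libraries, and an SE is the size of the log2 fold change divided by the root of its F statistic. The biological coefficient of variation was 0.0395, and replicate libraries differed by 3.30 to 4.61 times the counting variance. In simulated counts for the comparison of PRMT5 knockdown with the control (14500 genes), 74% of 1.2-fold changes, 100% of 1.5-fold changes and 0.0629% of unchanged genes were called. The simulation changed only 50 genes at each fold and gave every gene the same spread. In the data 51.0% of genes passed in this comparison, so these rates need not hold there.

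Members and lists were chosen with earlier results of these data known. Named are, for each knockdown, the 8 largest rises and 8 largest falls among called members whose libraries do not overlap, the 4 largest each way between the knockdowns, the 6 highest per length, 3 on each side of the floor, up to 4 of each role list and 3 of each corepressor list with TRIM28 and SETDB1. ZNF12, ZNF714, ZNF460, ZNF143, ZNF217, ZNF219 and neighbours in runs or promoters were added after their values were seen. Tried as well were DESeq2 1.42.0, RLE, upper-quartile and library-total scaling, other low-count filters, a replicate block, a GC offset, fits of 6 libraries, other floors and each library left out.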

Additional observations from a re-analysis of the deposited data

Results flagged for a closer look

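All results here were singled out because PRMT5 knockdown and MEP50 knockdown, measured against the same control libraries, differed from each other in a direct edgeR test. Among the members, 100 were higher and 18 lower with PRMT5 knockdown than with MEP50 knockdown. On the log2 scale ZNF107 differed by 0.82, ZNF138 by 0.86, ZNF678 by 0.95, ZNF12 by 0.47 and ZNF714 by 0.52, each with opposite calls against the control. ZNF483 differed by 1.21, ZNF805 by 0.93, ZNF778 by 0.79, ZNF101 by 0.56, ZNF451 by 0.50, ZNF10 by 0.47, ZNF264 by 0.46, ZNF331 by 0.45 and ZNF174 by 0.36, all of them called lower with MEP50 knockdown. Smaller positive differences were 0.28 for ZNF24, 0.25 for ZNF33A, 0.21 for ZNF367, 0.21 for ZNF593, 0.18 for ZNF274, 0.17 for ZNF146 and 0.10 for ZNF664. Lower with PRMT5 knockdown than with MEP50 knockdown were ZNF608 at -1.77, ZNF385A at -0.68, ZNF618 at -0.61, ZNF697 at -0.57, ZNF503 at -0.50, ZNF558 at -0.40, ZNF576 at -0.29 and ZNF318 at -0.24. Of these, the difference of ZNF10 was lost without PRMT5 knockdown library 1 or 3 (adjusted p = 0.0656 and 0.0781) or MEP50 knockdown library 1 or 2 (adjusted p = 0.107 and 0.0673). That of ZNF664 was lost without PRMT5 knockdown library 1 (adjusted p = 0.122) or MEP50 knockdown library 2 (adjusted p = 0.143), and that of ZNF274 without PRMT5 knockdown library 1 or 2, MEP50 knockdown library 1 or 3, or control library 3 (adjusted p = 0.0514 to 0.208). That of ZNF576 was lost in 10 alternatives (adjusted p = 0.0519 to 0.129), among them those without PRMT5 knockdown library 2 or 3 or MEP50 knockdown library 2 or 3. That of ZNF593 was lost in 13 (adjusted p = 0.0504 to 0.223), among them those without any 1 library but PRMT5 knockdown library 2 and MEP50 knockdown library 2. The differences of ZNF367, ZNF264 and ZNF331 that single libraries end are given above.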

How the results depend on the processing

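No called result changed its direction in any alternative run. Of 177 results of named genes 11 crossed 0 in some alternative, and 0 of these were called, ZNF282 with PRMT5 knockdown (-0.01, from -0.07 to 0.02) and ZNF33A with MEP50 knockdown (-0.03, from -0.07 to 0.03) among them. The median log2 fold change of the members with PRMT5 knockdown was 0.055 and moved by more than the spread between control libraries, to 0.0456 with upper-quartile scaling, 0.0469 without the low-count filter and 0.0649 with the floor set over the 6 knockdown libraries, and it ran from 0.0299 (without PRMT5 knockdown library 1) to 0.0529 when single libraries were left out. Over the same removals the medians ran from -0.0927 to -0.0628 with MEP50 knockdown and from 0.103 to 0.128 between the knockdowns. Counts of members stayed within 1.5 times the main count. With single libraries left out they ran from 51 to 69 higher and 32 to 45 lower with PRMT5 knockdown, 30 to 37 and 78 to 91 with MEP50 knockdown, and 70 to 96 and 14 to 18 between the knockdowns. DESeq2 called 56 higher and 40 lower, 34 and 88, and 90 and 14. Labels number the replicates in each group, but libraries with the same number did not deviate together (r -0.0361 to 0.0517 over 9 pairs, against -0.0544 to 0.0518 over 18 pairs with different numbers), so the numbers give no pairs. With the replicate block 67 were higher and 41 lower with PRMT5 knockdown, 36 and 91 with MEP50 knockdown, and 99 and 18 between the knockdowns, and the difference of ZNF593 was lost (adjusted p = 0.0529). Of 125 called results of 59 named genes, 99 held in all 19 alternatives and 26 were lost in some, and 17 of 52 others passed in some. Precision is limited by 3 libraries per group and, for members near the floor, by few reads. Against the control the members passed less often than genes at large and were also lower in level (medians 14 and 23.1 CPM), and the part of level in that share was not tested.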

Other observations

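The 187 ZNF genes under the floor were tested only where reads allowed, which was for 54 of them. These had 15 higher (27.8%) and 0 lower with PRMT5 knockdown, 5 higher and 1 lower (9.26% and 1.85%) with MEP50 knockdown, and 3 higher (5.56%) and 0 lower between the knockdowns. All genes tested were 26.1% higher and 24.9% lower, 26.5% and 25.2%, and 19.2% and 20.5% in these comparisons. Each count of 0 (edgeR, adjusted) was 1 at an unadjusted p under 0.05 and 0 by DESeq2. A gene of low control level enters the test more easily when a knockdown raises it, so these counts are a description. Related families were counted as well. Of 34 tested ZBTB genes, which pair fingers with a BTB domain, 7 were higher and 9 lower with PRMT5 knockdown (20.6% and 26.5%), 3 and 11 with MEP50 knockdown (8.82% and 32.4%), and 8 and 3 between the knockdowns (23.5% and 8.82%). Of 14 tested ZSCAN genes 2 were higher and 3 lower, 2 and 4, and 2 and 0 in the same comparisons (for the count of 0, 1 by edgeR at an unadjusted p under 0.05 and 0 by DESeq2). Of 11 tested ZFP genes 2 were higher and 2 lower, 3 and 3, and 3 and 1, and of 6 tested ZKSCAN genes 1 and 1, 2 and 2, and 1 and 1.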
